A study of Homo sapiens with 6 samples.

Results

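The caveolae coat genes examined here were the 8 genes CAV1, CAV2, PTRF, SDPR, PRKCDBP, EHD2, PACSIN2 and PACSIN3, taken by symbol from the 54259 gene symbols of the deposited count table. PTRF, SDPR and PRKCDBP are the older symbols of CAVIN1, CAVIN2 and CAVIN3, which encode cavin-1, cavin-2 and cavin-3. All 8 were found, and all 8 passed the filter on low counts. RNA-Sequence had been performed on MDA-MB-231 shBry cells (3 libraries), which express a hairpin that targets brachyury, and on MDA-MB-231 shNC cells (3 libraries), which carry a control hairpin. Both groups are the same cell line, MDA-MB-231, which was established from a human breast cancer and has a mesenchymal shape. The comparison asks which transcripts differ after a knockdown of brachyury, a T-box transcription factor. The sequence of either hairpin, whether the cells were a clone or a pool, and whether the 3 libraries of a group came from separate cultures were not given in the sources used here, so errors measure the spread between these libraries.

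Caveolae are small flask-shaped pits of the plasma membrane, rich in cholesterol, that flatten when the membrane is stretched and take part in endocytosis, lipid handling and signalling. Caveolins sit in the membrane as oligomers, cavins form a coat on its inner face, and accessory proteins with membrane-binding domains shape the bulb and hold the neck. Caveolae are abundant in endothelium, fat cells, fibroblasts and muscle, and cultured mesenchymal tumor cells often have many of them.

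The libraries held between 19319411 and 22985371 counts, and those of a group differed by more than counting error (chi-square per degree of freedom 5.04 to 17.1 over genes). Brachyury, listed under its older symbol T, had 0 counts in all 6 libraries, shNC included. These counts thus show neither its expression in the control cells nor the knockdown itself. The series text speaks of pericardial RNA, while the labels name MDA-MB-231 cells. All 5 markers of mesenchymal breast cancer cells (VIM, CD44, AXL, MSN and ANXA1) were detected, with a summed level of 7530 to 7870 CPM in shNC and 6610 to 6880 CPM in shBry. The 5 markers of luminal or epithelial breast cells summed to between 10.4 and 13.6 CPM in shNC and between 16.3 and 18.9 CPM in shBry. Among them GATA3 averaged 10.4 CPM in shNC and 13 in shBry, EPCAM 1.55 and 4.28 CPM, and ESR1, PGR and CDH1 at most 0.0325 CPM in either group. The 5 markers of pericardial mesothelium summed to between 40.2 and 42.1 CPM in shNC and between 51.4 and 57.7 CPM in shBry. MSLN averaged 32.1 CPM in shNC and 45.9 in shBry, LRRN4 4.17 and 7.08 CPM, CALB2 4.62 and 0.81 CPM, and UPK3B and WT1 at most 0.222 CPM in either group. The part of these markers in the results was not tested.

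The core of the coat was lower in MDA-MB-231 shBry cells. The caveolin gene CAV1 and the cavin genes PTRF, SDPR and PRKCDBP had mean levels between 2.16-fold and 6.99-fold lower in shBry than in shNC. CAV2, the partner of CAV1, was at nearly the same level in both groups, and the accessory genes EHD2, PACSIN2 and PACSIN3 differed by less than 1.5-fold. A gene was called when its fold change exceeded 1.5 and edgeR's quasi-likelihood test, adjusted by the Benjamini-Hochberg method over all genes, gave p below 0.05. By this rule 4 of the 8 genes were called, all 4 lower in shBry, whereas 32.4% of the 15277 tested genes were called, 15.2% lower and 17.1% higher. The 8 genes were chosen by symbol with the shBry to shNC fold changes already known, so their differences are given as a description and without p. Their median log2 fold change was -0.78 (shBry relative to shNC), and that of all tested genes was 0.03. In this bulk RNA, fewer cells of a kind and less RNA per cell cannot be told apart.

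**Figure D1:**
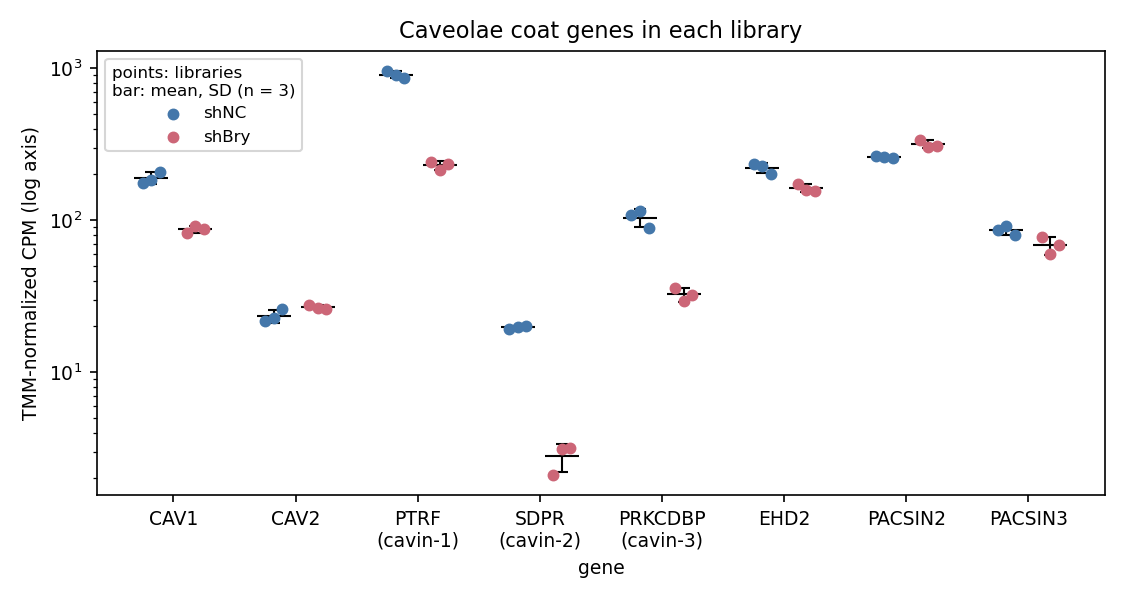
TMM-normalized CPM (log axis) of the 8 caveolae coat genes in the 3 shNC and 3 shBry libraries, with points for libraries and bars for mean and SD. PTRF, SDPR, PRKCDBP and CAV1 lie lower in every shBry library than in any shNC library, while the CAV2 values of the groups overlap.

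CAV1 encodes caveolin-1, the structural protein that caveolae outside striated muscle need. The annotation GENCODE 29 places it on the plus strand of chromosome 7 (GRCh38), from 116524785 to 116561184, and no other annotated gene overlaps its exons. It had 175.4, 184.5 and 208 CPM (counts relative to the library total, scaled between libraries by edgeR's TMM method) in shNC replicates 1, 2 and 3, and 82.86, 92.22 and 87.6 CPM in shBry replicates 1, 2 and 3. Every shBry library was below every shNC library. The mean was 189 ± 16.8 CPM in shNC (SD, n = 3) and 87.6 ± 4.68 CPM in shBry. The log2 fold change was -1.11 (standard error, SE, 0.09), or 2.16-fold lower.

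CAV2 encodes caveolin-2, which joins caveolin-1 in oligomers and needs it to reach the cell surface. It lies next to CAV1 on the same strand of chromosome 7, where GENCODE 29 gives it a span from 116287380 to 116508541 that includes a long upstream extension. By the RefSeq starts, CAV2 begins 25.3 kb before CAV1. It had 21.63, 22.83 and 26.09 CPM in the shNC replicates and 27.67, 26.55 and 26.07 CPM in the shBry replicates. The groups overlapped, although only by the highest shNC and the lowest shBry library. CAV2 had a log2 fold change of 0.19 (SE 0.11).

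The ratio of CAV2 counts to CAV1 counts within a library does not depend on scaling between libraries. It was 0.123, 0.124 and 0.125 in shNC replicates 1, 2 and 3, and 0.334, 0.288 and 0.298 in the shBry replicates. The shNC libraries were thus almost alike in this ratio, and all shBry libraries had a higher one. The mean ratio was 0.124 ± 0.00113 in shNC (SD, n = 3) and 0.306 ± 0.0243 in shBry. It is a ratio of read counts, not of molecules, because the transcripts of these genes differ in length.

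Among the cavins, PTRF encodes cavin-1, which caveolae need in every tissue and without which caveolin-1 spreads in the flat membrane. It lies on chromosome 17 from 42402452 to 42423517 on the minus strand. PTRF had 959.7, 898.4 and 865.7 CPM in shNC and 241.2, 213.4 and 234.5 CPM in shBry. The lowest shNC library exceeded the highest shBry library by far, and per kilobase of transcript PTRF had the highest level of the 8 genes in every shNC library. The mean was 908 ± 47.7 CPM in shNC (SD, n = 3) and 230 ± 14.5 CPM in shBry. The log2 fold change was -1.98 (SE 0.08), or 3.95-fold lower.

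SDPR encodes cavin-2, which binds phosphatidylserine and bends the membrane at caveolae. It lies on chromosome 2 from 191834302 to 191847255 on the minus strand. SDPR had 418, 419 and 402 counts in shNC, or 19.15, 19.81 and 20.13 CPM, and 39, 74 and 71 counts in shBry, or 2.1, 3.119 and 3.148 CPM. All 3 shBry libraries were far below shNC, and replicate 1 of shBry was the lowest. The log2 fold change of SDPR was -2.81 (SE 0.17), or 6.99-fold lower, and only 0.196% of all tested genes had a lower value. Among the 8 genes it had the largest difference in every fit that was run.

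PRKCDBP encodes cavin-3, which was named for its binding of protein kinase C delta. It lies on chromosome 11 from 6318946 to 6320647 on the minus strand. PRKCDBP had 107.9, 115.4 and 88.4 CPM in shNC and 35.96, 29.21 and 32.23 CPM in shBry. Again every shBry library was below every shNC library. The mean was 104 ± 13.9 CPM in shNC (SD, n = 3) and 32.5 ± 3.38 CPM in shBry. The log2 fold change was -1.68 (SE 0.11), or 3.2-fold lower. A gene on the opposite strand, AC068733.3, overlaps 33.3% of the exon bases of PRKCDBP and AC098617.1 overlaps 7.22% of those of SDPR. The sources used here do not say whether reads were counted by strand, so how reads in these overlaps were counted is not known.

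The cavins did not stand in the same proportion to CAV1 in both groups. Per CAV1 count there were 5.47, 4.87 and 4.16 PTRF counts in the shNC libraries and 2.91, 2.31 and 2.68 in the shBry libraries. The ratio of SDPR to CAV1 was 0.109, 0.107 and 0.0968 in shNC and 0.0253, 0.0338 and 0.0359 in shBry. For both genes all shBry ratios lay below all shNC ratios. The ratio of PRKCDBP to CAV1 was 0.615, 0.625 and 0.425 in shNC and 0.434, 0.317 and 0.368 in shBry, and these ranges overlapped because of shNC replicate 3.

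The accessory genes differed less. EHD2, an ATPase that forms rings at the neck of caveolae and holds them at the cell surface, had 233.7, 227.4 and 202.2 CPM in shNC and 173.3, 156.9 and 156.7 CPM in shBry. The groups did not overlap, with all shBry libraries lower. EHD2 had a log2 fold change of -0.45 (SE 0.08), which is under the fold change limit of 1.5. PACSIN2, an F-BAR protein that binds caveolin-1 and shapes caveolae, had 264.6, 262.1 and 256.1 CPM in shNC and 338, 302 and 307.6 CPM in shBry. It was the sole member of the 8 genes whose shBry libraries all lay above shNC, with a log2 fold change of 0.28 (SE 0.08). PACSIN3, the paralog best known from muscle, had 85.72, 91.9 and 79.43 CPM in shNC and 77.42, 59.52 and 68.27 CPM in shBry. Its shBry libraries were lower without overlap, but the gap between the closest libraries was small, and the log2 fold change was -0.33 (SE 0.1). EHD2 lies on chromosome 19 from 47713343 to 47743134, PACSIN2 on chromosome 22 from 42835412 to 43015145 and PACSIN3 on chromosome 11 from 47177525 to 47186443.

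Over the 8 genes, 7 had CPM ranges that did not overlap between the groups, 6 of them with all shBry libraries lower and 1 with all shBry libraries higher. Among all tested genes 59.5% had ranges without overlap, 28.9% with shBry lower and 30.6% with shBry higher. The log2 fold changes of the 8 genes ran from -2.81 to 0.28. The central 90% of all tested genes ran from -1.18 to 1.28. PRKCDBP, PTRF and SDPR lay below it, with 1.7%, 0.916% and 0.196% of all tested genes lower, and CAV1 lay just inside it, with 5.69% lower. CAV2, PACSIN2 and PACSIN3 lay in the central 50%, from -0.40 to 0.44, and EHD2 just below it.

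**Figure D2:**
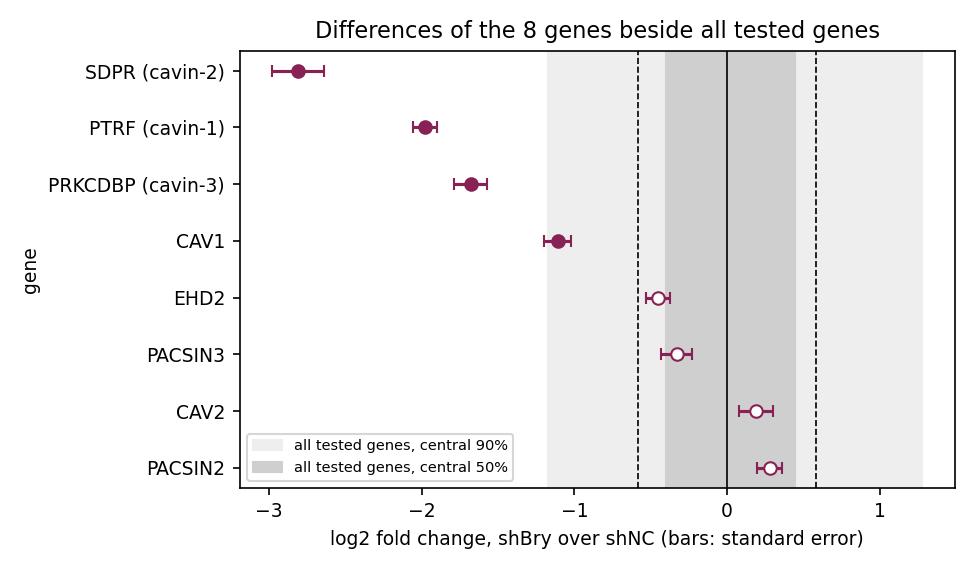
Log2 fold changes of the 8 genes (shBry over shNC, bars are standard errors), with filled points for called genes, bands for the central 50% and 90% of all 15277 tested genes, and dashed lines at a fold change of 1.5. The 3 cavin genes lie left of the central 90% band, CAV1 at -1.11 lies just inside its edge, and the other 4 genes lie between the dashed lines.

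For the 4 called genes the spread within a group was small beside the difference between groups, while for CAV2 the groups overlapped. The coefficient of variation of CAV1 over the 3 libraries was 8.89% in shNC and 5.35% in shBry, where counting alone would give 1.59% and 2.29%. For PTRF it was 5.26% and 6.3%, and counting alone would give 0.724% and 1.42%. SDPR varied by 2.54% in shNC, below the 4.92% of counting, and by 21.4% in shBry, where counting gives 12.8%. CAV2 in shBry also varied by less than counting gives (3.07%, counting 4.16%), and the other genes and groups varied by more. These values cover counting error only and treat reads as independent.

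To set the genes in order, CPM were divided by the length of the principal transcript in kilobases. In shNC, PTRF had the highest level with 237 ± 12.5 CPM per kb (SD, n = 3), followed by PRKCDBP with 88.5 ± 11.9 and PACSIN2 with 80.3 ± 1.35, whose ranges overlapped. CAV1 with 70 ± 6.22 and EHD2 with 61.7 ± 4.65 CPM per kb also overlapped. PACSIN3 followed with 42.7 ± 3.1, CAV2 with 7.12 ± 0.7 and SDPR with 6.1 ± 0.155. In shBry the order was another. PACSIN2 was highest with 97.2 ± 5.97 CPM per kb, then PTRF with 60 ± 3.78 and EHD2 with 45.3 ± 2.66. PACSIN3 with 34 ± 4.46 overlapped CAV1 with 32.4 ± 1.73, and PRKCDBP had 27.7 ± 2.88, CAV2 8.11 ± 0.249 and SDPR 0.864 ± 0.185. With the length of all annotated exons in place of the principal transcript, CAV1 and EHD2 changed places in shNC, as did CAV2 and SDPR, and the order in shBry stayed.

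The sum of the 8 genes was 609, 604 and 567 CPM per kb in the shNC libraries and 324, 290 and 302 in the shBry libraries. PTRF made up 41.2%, 38.8% and 39.9% of this sum in shNC and 19.4%, 19.2% and 20.3% in shBry. PACSIN2 made up 13.4%, 13.4% and 13.9% in shNC and 32.1%, 32% and 31.3% in shBry. The make-up was alike among libraries of a group. PTRF had the largest share in every shNC library and PACSIN2 in every shBry library. The share of CAV1, between 10.6% and 13.6% in shNC and between 9.45% and 11.8% in shBry, overlapped.

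**Figure D3:**
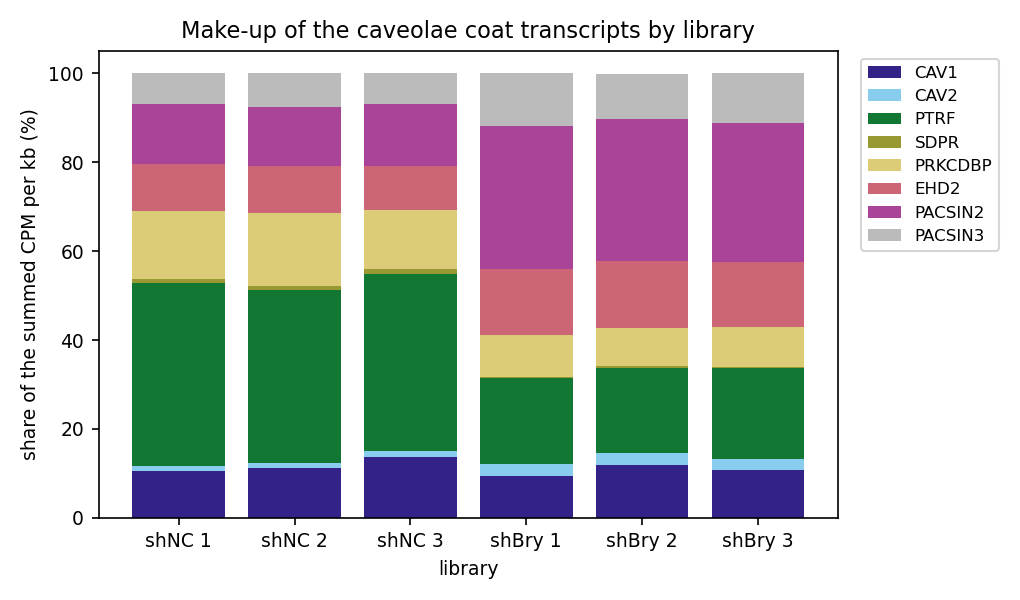
Share of each of the 8 genes in their summed CPM per kb (bars from 0 to 100%) in each shNC and shBry library. The PTRF share is 38.8% or more in shNC and 20.3% or less in shBry, and the PACSIN2 share is 13.9% or less in shNC and 31.3% or more in shBry.

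Cells of other kinds, among them those with many caveolae, were looked for by their markers. The summed level of 5 endothelial markers (PECAM1, CDH5, VWF, TEK and PLVAP) was between 1 and 1.23 CPM in shNC and between 0.431 and 0.665 CPM in shBry, and PLVAP was at 0 in all libraries. The 4 adipocyte markers (ADIPOQ, FABP4, PLIN1 and LEP) summed to between 0.871 and 1.2 CPM in shNC and between 0.222 and 1.01 CPM in shBry, with ADIPOQ and LEP at 0. The 5 muscle markers (ACTA1, DES, CKM, MYH7 and TNNT2) summed to between 2.25 and 2.75 CPM in shNC and between 1.37 and 1.6 CPM in shBry, nearly all of it DES, with MYH7 at 0. The 5 fibroblast markers (COL1A1, COL1A2, DCN, LUM and PDGFRA) summed to between 19.4 and 23.9 CPM in shNC and between 20.8 and 24.3 CPM in shBry, nearly all of it COL1A1, with DCN at 0. The 4 leukocyte markers (PTPRC, TYROBP, LYZ and CD53) summed to at most 0.229 CPM in any library. The endothelial and muscle sums were thus lower in shBry, as the 4 called coat genes were, but at low levels of at most 1.23 and 2.75 CPM. The fibroblast, adipocyte and leukocyte sums overlapped between the groups. The part of these markers in the differences of the coat genes was not tested.

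The neighbourhood of CAV1 and CAV2 on chromosome 7 was examined, because the pair lies side by side and only CAV1 was called. Within 500 kb on either side of the pair, GENCODE 29 lists 5 other protein-coding genes, of which 4 were tested and 1 (25%) was called, near the 32.4% of all tested genes. TES, which encodes the focal adhesion protein testin and begins 314.5 kb before CAV1, rose. It had 45.08, 45.43 and 53.44 CPM in shNC and 135.5, 128.4 and 144.3 CPM in shBry (log2 fold change 1.50, SE 0.09, edgeR adjusted p = 1.3e-08). CAV2 thus lies between a called gene that was higher and a called gene that was lower in shBry. MET, the receptor of hepatocyte growth factor, had 129 ± 9.72 CPM in shNC and 149 ± 11.6 in shBry (SD, n = 3; log2 fold change 0.20, edgeR adjusted p = 0.066). CAPZA2, a capping protein of actin filaments, had a log2 fold change of 0.03 (edgeR adjusted p = 0.88), and ST7 had -0.41 (edgeR adjusted p = 0.013), under the fold change limit. TFEC had at most 1 count in any library and was not tested. Other annotated genes overlap 22% of the exon bases of ST7, 7.92% of those of CAPZA2 and 5.65% of those of TES.

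**Figure D4:**
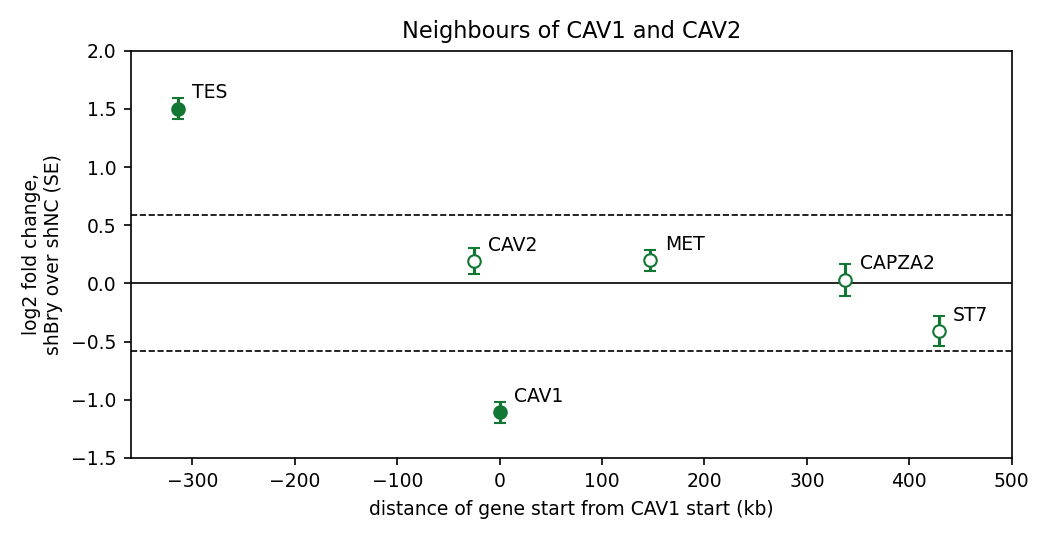
Log2 fold change (shBry over shNC, bars are standard errors) of CAV1, CAV2 and the 4 tested coding neighbours against the distance of each gene's start from the start of CAV1 in kb, with filled points for called genes and dashed lines at a fold change of 1.5. TES at 1.50 and CAV1 at -1.11 lie outside the dashed lines, while CAV2, MET, CAPZA2 and ST7 lie between them.

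The bases just before the starts of CAV1, CAV2 and SDPR are shown because CAV1 and SDPR were lower in shBry and CAV2 was not. They are the 250 bases before the RefSeq start farthest upstream in each gene (GRCh38.p14), at chr7:116524759-116525008 on the plus strand for CAV1, chr7:116499488-116499737 on the plus strand for CAV2 and chr2:191847089-191847338 on the minus strand for SDPR. Each is written from 5′ to 3′ along the gene, and capitals mark the GC box GGGCGG on either strand, with overlaps merged.
CAV1: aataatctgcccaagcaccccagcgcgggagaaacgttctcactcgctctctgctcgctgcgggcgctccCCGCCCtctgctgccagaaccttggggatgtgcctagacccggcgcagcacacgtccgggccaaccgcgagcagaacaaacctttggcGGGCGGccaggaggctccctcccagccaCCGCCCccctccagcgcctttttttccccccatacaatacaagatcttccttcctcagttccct
CAV2: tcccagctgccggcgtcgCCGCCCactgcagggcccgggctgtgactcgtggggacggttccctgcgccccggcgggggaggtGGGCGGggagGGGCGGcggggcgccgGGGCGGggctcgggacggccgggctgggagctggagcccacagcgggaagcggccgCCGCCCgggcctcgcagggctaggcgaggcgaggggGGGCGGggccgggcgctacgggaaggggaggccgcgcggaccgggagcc
SDPR: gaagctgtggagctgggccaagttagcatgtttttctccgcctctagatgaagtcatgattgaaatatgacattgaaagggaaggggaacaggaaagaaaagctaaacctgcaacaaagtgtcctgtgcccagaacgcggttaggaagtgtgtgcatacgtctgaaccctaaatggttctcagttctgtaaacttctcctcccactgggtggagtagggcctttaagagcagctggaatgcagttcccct
The CAV2 window was 83.2% G and C and held 6 GC boxes, the CAV1 window was 63.6% and held 3, and the SDPR window was 48% and held 0. The order of CAV1 and CAV2 depends on the start chosen, since the other CAV2 window was 70% G and C with 3 boxes and the other CAV1 windows were 63.2% with 3 and 73.2% with 2. Over all 35116 windows of this length in the RefSeq table the median was 58%, and 42.6% held a GC box. The table had windows for 5 of the 8 genes, with 13 windows in all because some genes have several starts, and those of a gene can overlap. PTRF, PRKCDBP and PACSIN3 had none, so the called genes PTRF and PRKCDBP were not searched. The letters GGTGTGA, a core of the site that brachyury and other T-box factors bind, were found on neither strand in any of the 13 windows, and 2.76% of all windows held them. The TATA box letters TATAAA were in none of the 13 either, and in 10.7% of all windows. These are matches of letters in a short window and do not show binding. GGTGTGA is rare enough that its absence from 13 windows says little about these genes.

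Other genes around caveolae were compared in lists written from the known role of each gene, though with earlier results of these data known. Of the 6 paralogs of the members, 3 were tested and 0 were called by edgeR, DESeq2 or limma-voom, while 2 of them had an unadjusted p below 0.05 in edgeR, and 32.4% of all tested genes were called. With no expression filter 1 was called. EHD1, which acts in the recycling of endosomes, had 261 ± 13.6 CPM in shNC and 348 ± 22.6 in shBry (SD, n = 3; log2 fold change 0.42, edgeR adjusted p = 0.00059). EHD4, a close relative, had 0.28 (edgeR adjusted p = 0.0098). Both were under the fold change limit and on the other side of zero from EHD2. MURC, now CAVIN4, the cavin of muscle, had 24, 16 and 19 counts in shNC and 9, 14 and 14 counts in shBry (log2 fold change -0.71, edgeR adjusted p = 0.11). CAV3, the caveolin of muscle, was listed at 0 in all libraries, and PACSIN1 and EHD3 had at most 8 and 4 counts.

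Of 17 partners that anchor, cut or signal at caveolae, 16 were tested and 9 (56.2%) were called, against 32.4% of all tested genes, 3 of them higher and 6 lower in shBry, with a median log2 fold change of -0.16. The dynamin genes DNM1 and DNM3, whose products cut vesicles from the membrane, fell. DNM1 had 73.67, 72.75 and 67.46 CPM in shNC and 21.97, 22.68 and 17.82 CPM in shBry (log2 fold change -1.78, SE 0.11, edgeR adjusted p = 1.1e-08). DNM3 was low, with 48 to 87 counts in shNC and 13 to 17 counts in shBry (log2 fold change -2.15, edgeR adjusted p = 2.9e-05). DNM2, the dynamin of most tissues, had a much higher level, 308 CPM in shNC and 262 CPM in shBry, and a log2 fold change of -0.23 that was not called.

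Among the partners that rose were NOS3 and FYN. NOS3, the endothelial nitric oxide synthase, which caveolin-1 binds and holds inactive, had 24.01, 25.15 and 20.88 CPM in shNC and 56.15, 49.65 and 56.39 CPM in shBry. Its log2 fold change was 1.21 (SE 0.11, edgeR adjusted p = 4.2e-07), and ATG9B on the opposite strand overlaps 13.2% of its exon bases. FYN, a kinase of the SRC family, had 42.2 ± 2.1 CPM in shNC and 95.5 ± 4.58 in shBry (SD, n = 3; log2 fold change 1.18, edgeR adjusted p = 7e-08). FLNA, the actin crosslinker that tethers caveolae, had 2260 CPM in shNC and 2140 CPM in shBry and was not called, and PLVAP was listed at 0.

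The flotillin and stomatin family, which forms other membrane domains, had 8 of 10 genes tested and 2 (25%) called, near the 32.4% of all tested genes. STOML1 rose from 16.6 ± 2.22 to 35.1 ± 3.27 CPM (SD, n = 3; log2 fold change 1.08, edgeR adjusted p = 7e-06). PHB, a prohibitin of mitochondria, fell from 481 ± 11.2 to 316 ± 39.6 CPM (log2 fold change -0.60, edgeR adjusted p = 7.2e-05). A gene on the opposite strand overlaps 25.1% of the exon bases of PHB, and without shBry replicate 2 PHB was not called, which left 1 gene of the family called. FLOT2 had a log2 fold change of -0.39 and was not called. FLOT1 was listed at 0 in all libraries. This 0 does not show that FLOT1 is not expressed, since how its reads were mapped and assigned could not be checked.

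The clathrin coat, the other main coat of the plasma membrane, had 26 of 27 genes tested and 8 (30.8%) called, 5 higher and 3 lower, near the 32.4% of all tested genes. The median log2 fold change was -0.17. AP2B1, the beta subunit of the clathrin adaptor AP-2, fell from 371 ± 15.2 to 220 ± 4.93 CPM (SD, n = 3; log2 fold change -0.75, edgeR adjusted p = 1.4e-06). AMPH, which encodes amphiphysin, was called lower with 12, 20 and 17 counts in shNC and 1, 1 and 5 counts in shBry (edgeR adjusted p = 0.0012), too few for a firm fold change. CLTCL1, a second clathrin heavy chain gene, rose by a log2 fold change of 0.84 (edgeR adjusted p = 4.8e-05), and PICALM, an assembly protein, by 0.78 (edgeR adjusted p = 9.9e-05). CLTC, the main heavy chain, had 274 CPM in shNC and 261 CPM in shBry and was not called. Without a library in turn, between 7 and 12 genes of this coat were called. The split between directions also moved. It was 3 higher and 4 lower without shNC replicate 2 or without shBry replicate 2. It was 5 and 7 without shNC replicate 3, 6 and 5 without shBry replicate 1, and 3 and 5 with no expression filter. With no fold change limit 7 were called higher and 13 lower, and with a limit of 2 it was 0 higher and 1 lower. Which direction held more called genes of this coat thus depended on the fold change limit and on the libraries used.

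Among 22 other genes that bend membranes or form carriers without clathrin, 20 were tested and 0 were called by edgeR, DESeq2 or limma-voom. Of all tested genes 32.4% were called. In edgeR 11 of the 20 had an unadjusted p below 0.05 and 9 an adjusted p below 0.05, all 9 under the fold change limit. With no fold change limit these 9 were called, 4 higher and 5 lower, as were 8139 of all 15277 tested genes. With a library left out in turn between 0 and 2 were called, and 1 with no expression filter. Their median log2 fold change was 0.07.

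**Figure D5:**
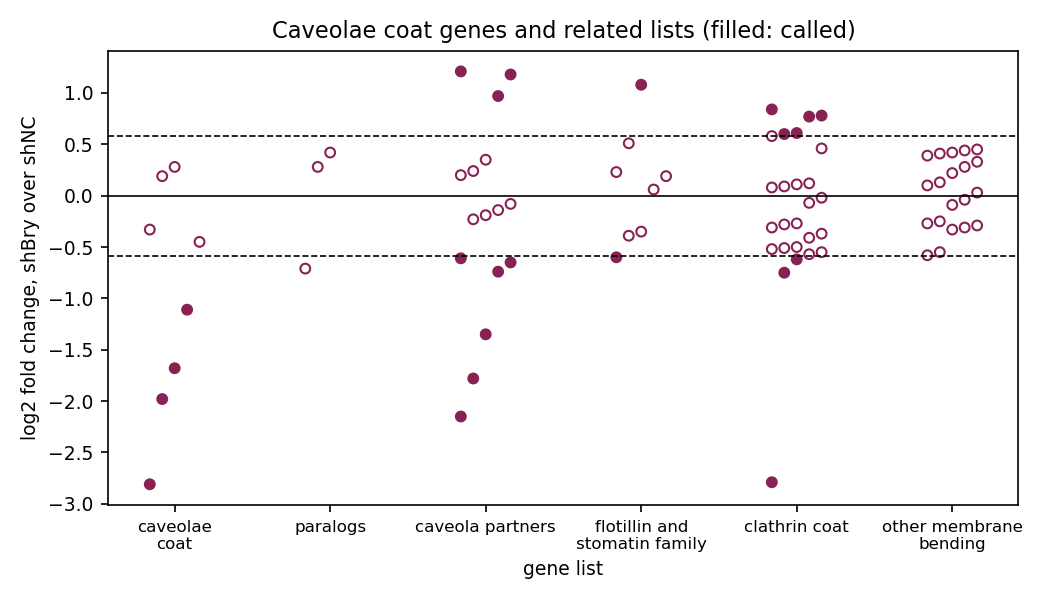
Log2 fold changes (shBry over shNC) of the tested genes in the caveolae coat and in 5 related lists, with filled points for called genes and dashed lines at a fold change of 1.5. The coat genes reach down to -2.81, the clathrin coat has called genes on both sides, and the paralogs and the other membrane-bending genes have 0 called.

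Genes with the profile most like CAV1 and SDPR over the 6 libraries were sought among 9405 genes (mean level 10 CPM or more), by the root mean square difference of centred log2 CPM. GPSM2 (0.0627), RIC8B (0.0629) and BUB1 (0.0662) were nearest to CAV1. Nearest to SDPR were TMEM97 (0.103), MXD3 (0.159) and FXYD6 (0.184). All 6 libraries share the group difference, which makes up most of each profile, so this likeness describes size and direction of the difference more than anything else.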

How the data were processed

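RNA of MDA-MB-231 shBry (3 libraries) and shNC (3 libraries) was sequenced. The authors deposited raw counts of reads per gene symbol, without normalization. The submitters' processing notes name HISAT2 2.0.4, HTSeq and GRCh38, and the annotation and strand setting are not given in the sources used here. Groups came from the labels. Libraries held 19319411 to 22985371 counts, so the limit behind a 0 (3 counts) is 0.155 CPM in the shallowest.

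edgeR 4.0.16 (R 4.3.3) was run on the whole table, with its filterByExpr filter at a minimum count of 10, TMM scaling and the quasi-likelihood test, and p was adjusted by the Benjamini-Hochberg method over 15277 genes. The standard error was the log2 fold change divided by the square root of F. Positions, lengths and overlaps came from GENCODE 29 and promoters from RefSeq, both on GRCh38. The 8 genes, the related lists and the tests were chosen with earlier results of these data known. All 8 members were named, with every tested gene of lists of up to 6, the 2 largest called rises and falls of longer lists, the tested neighbours of CAV1 and CAV2, and the 3 genes most like CAV1 and SDPR. Other genes named were chosen after their values were seen. Alternatives were DESeq2 1.42.0, limma-voom (limma 3.58.1), other scaling, filters and limits, a replicate block and libraries left out. The fits were run first on simulated data in which far fewer genes were changed than were called here. That run does not show how they perform on data that differ this widely.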

Additional observations from a re-analysis of the deposited data

How the results depend on the processing

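CAV1, PTRF, SDPR and PRKCDBP were called lower in shBry in all 16 fits and limits that were run, so 4 of the 8 genes were called in each of them except without a fold change limit, when 7 were called. That limit also moved the other counts. Without it 49 companion genes in place of 19, 2 genes in place of 1 near CAV1 and CAV2, and 8139 genes in all in place of 4945 were called, and with a limit of 2 they were 7 companion genes and 2297 genes in all. The median log2 fold change of the 8 genes lay between -0.80 and -0.77 over the 12 other fits. The log2 fold change ran from -1.17 to -1.06 for CAV1, -2.04 to -1.95 for PTRF, -2.90 to -2.65 for SDPR and -1.81 to -1.62 for PRKCDBP, and from 0.12 to 0.24 for CAV2. Without TMM the median over all tested genes moved by -0.016.

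With the replicate number as a block, 4 of the 8 genes, 19 companion genes, 1 neighbour and 4914 genes in all were called. Same-numbered libraries deviated together with correlations of 0.29, -0.159 and -0.0689 for replicates 1, 2 and 3. These values show no consistent pairing by number. With 3 libraries per group they cannot decide whether same-numbered samples were prepared together. Depth limited the genes with under 100 counts per library, among them SDPR in shBry, MURC, DNM3 and AMPH.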
